A study of Mus musculus with 441 samples.

Results

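The nuclear genes for the mitochondrial respiratory chain and ATP synthase made up 83 of the 13561 genes measured in 441 single cells from mouse pancreatic islets. They were chosen by symbol alone: Ndufa, Ndufb, Ndufc, Ndufs, Ndufv, Uqcr, Cox4, Cox5, Cox6, Cox7, Cox8 and Atp5 genes with Sdha, Sdhb, Sdhc, Sdhd and Cycs, leaving out Ndufaf assembly factors and symbols that carry the pseudogene mark. No measured value entered this rule, though earlier results of these data were known when the set was chosen. Complex I had 36 members, complex II 4, complex III 8, cytochrome c 1, complex IV 17 and ATP synthase 15. Another 2 symbols taken by the rule, Atp5s and Atp5sl, encode no known subunit and are kept apart. Ndufa4 and its paralogue Ndufa4l2 are counted in complex IV, where the Ndufa4 protein is known to sit. The subunits encoded in mitochondrial DNA were not analysed here.

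The cells were islet lymphocytes stained with a tetramer, a linked set of MHC class II molecules that carry a peptide, and were sorted singly as CD4 T cells specific for beta cells before full-length SMART-Seq2 sequencing. A HIP tetramer sort gave 184 cells and an Ins tetramer sort gave 257, and the labels spell out neither abbreviation. The authors' annotation placed the cells in 5 classes. T follicular helper (Tfh) cells numbered 111 in the HIP and 61 in the Ins sort, regulatory T cells (Tregs) 3 and 115, and dividing CD4 T cells 9 and 35. Cluster 2, annotated as activated CD4 cells, held 61 HIP and 25 Ins cells, and cluster 4, annotated as B cells, held 21 Ins cells. Those 2 classes are called by number here. Among the leading genes of cluster 2 were Nkg7, Cxcr6 and Gzmk, which are known from effector T cells. Nkg7 was also a leading gene of Tregs. Cxcr6 was detected in 53.0% of Ins Tregs, against 54.1% of HIP and 68% of Ins cluster 2 cells. In cluster 4, Cd4 was listed at 0 in all 21 cells, while the 6 measured antibody-secreting cell markers summed to a mean of 131704 TPM, against at most 268.3 TPM in any other group. No strain, age, genotype, treatment or animal is named for any cell, so all groups share whatever the mice had in common and each sort counted as 1 sample.

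Values are TPM, a transcript abundance of fixed total per cell, which scales each gene by its length, so levels of different genes can be compared within a cell. TPM keeps no sequencing depth, and depth per cell is unknown. The number of genes detected per cell, from 625 to 5929 with 2081 as its median, was the only stand-in. A gene was called detected at 1 TPM or more. Differences between groups have no replicate check, no test was made, and a standard deviation given over cells is spread between cells. Blocks of 96 consecutive cell numbers each held cells of 1 sort (2 HIP blocks and 3 Ins blocks). The range of a class ratio over the blocks of a sort is given as a description of its steadiness. No block held both sorts, so sort and block cannot be told apart.

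The respiratory chain passes electrons from food molecules to oxygen in the inner mitochondrial membrane. Complex I takes them from NADH and complex II from succinate, complex III hands them to the small carrier cytochrome c, and complex IV reduces oxygen. Protons pumped on the way flow back through the c ring of ATP synthase, whose turning drives ATP formation in the F1 head. Resting and regulatory T cells are known to draw on oxidative phosphorylation, and T cells that enter division enlarge their mitochondria while they also raise glycolysis.

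The promoters of the c ring genes are shown because 3 genes, Atp5g1, Atp5g2 and Atp5g3, encode the same mature c subunit from separate loci and were not alike in the comparisons below. Atp5o, which encodes the stalk subunit OSCP, is added because it was among the members that differed most in 3 comparisons. Each line gives the 100 bases before an annotated start from RefSeq (GRCm38.p6), written 5′ to 3′ on the coding strand. A match to the NRF1 motif is in capitals. The gene spans of Atp5g1 and Atp5g3 reach further upstream, to 96075694 and 73912464. The Atp5g1 stretch therefore lies partly, and the Atp5g3 stretch wholly, inside the gene span, and no other start of these genes was searched. NRF1, nuclear respiratory factor 1, is a known activator of respiratory chain genes.
Atp5g1, chr11:96075632-96075731, minus strand: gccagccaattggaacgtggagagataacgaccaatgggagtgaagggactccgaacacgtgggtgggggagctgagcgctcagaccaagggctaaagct
Atp5g2, chr15:102671048-102671147, minus strand: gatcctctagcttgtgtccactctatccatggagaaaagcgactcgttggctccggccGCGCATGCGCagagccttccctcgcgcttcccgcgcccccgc
Atp5g3, chr2:73911327-73911426, minus strand: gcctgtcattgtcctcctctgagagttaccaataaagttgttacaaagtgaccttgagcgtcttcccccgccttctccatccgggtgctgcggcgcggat
Atp5o, chr16:91931631-91931730, minus strand: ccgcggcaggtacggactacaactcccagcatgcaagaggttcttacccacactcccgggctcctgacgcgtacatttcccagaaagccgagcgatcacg

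In the 3 c ring promoters these letters differ: Atp5g2 held a full NRF1 match at position -42, Atp5g3 held one at position 12 after the start, outside the stretch shown, and Atp5g1 held none in its window. Atp5o held one at position 9. Of the 83 members, 66 had a promoter in the RefSeq table, taken as 250 bases before to 50 after the start. The NRF1 string GCGCANGCGC, read on both strands, was in 17 of those 66 (25.8%), against 5.19% of all 27025 genes with a promoter and 13.3% of the 4408 such genes detected in at least 10% of cells. The ETS string CCGGAAG, bound by GABPA, the other nuclear respiratory factor, was in 16 of 66 (24.2%), against 9.93% of all genes and 25.1% of detected genes. The YY1 string ATGGCGGC was in 6 of 66 (9.09%), against 2.61% and 6.56%. None of the 3 strings contains another, and a match is a description of letters, not a binding site.

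Across the 420 cells of clusters 0 to 3, complex IV genes had the highest levels. Cox4i1, a nuclear-encoded subunit of cytochrome oxidase, had a mean of 1677 ± 1415 TPM (SD over cells), which placed it at rank 85 of 13561 genes. It was detected in 83.3% of cells. Cox8a followed at 1029 TPM and Ndufa4 at 895.7 TPM. Among the 1000 genes of highest mean, 61 were members of the chain or synthase. ATP synthase was led by Atp5h, a stalk subunit, at 869.0 TPM and Atp5b, the catalytic beta subunit, at 811.2 TPM, and its lowest member was Atp5k at 137.9 TPM. In complex III the hinge protein gene Uqcrh had 894.9 TPM and the core gene Uqcrc1 537.3 TPM.

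Complex I members were lower, with a median of 260.2 TPM over the 36 genes against 503.1 TPM over the 15 of ATP synthase. Its highest were the accessory subunits Ndufa2 (502.7 TPM), Ndufb7 (481.6 TPM), Ndufb8 (473.9 TPM) and Ndufa3 (426.0 TPM), and its lowest was Ndufs5 at 20.5 TPM. In complex II, the iron-sulfur subunit Sdhb had 464.5 TPM and the flavoprotein Sdha 236.9 TPM, while the membrane anchors Sdhd and Sdhc had 150.1 and 116.3 TPM. Cycs, the only cytochrome c gene among the members, had a mean of 83.7 ± 175.5 TPM, with a median of 1.04 TPM over cells. Reads of such genes can be shared with pseudogenes and paralogues, so the low values of Cycs and the split between the c ring genes are uncertain.

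**Figure D1:**
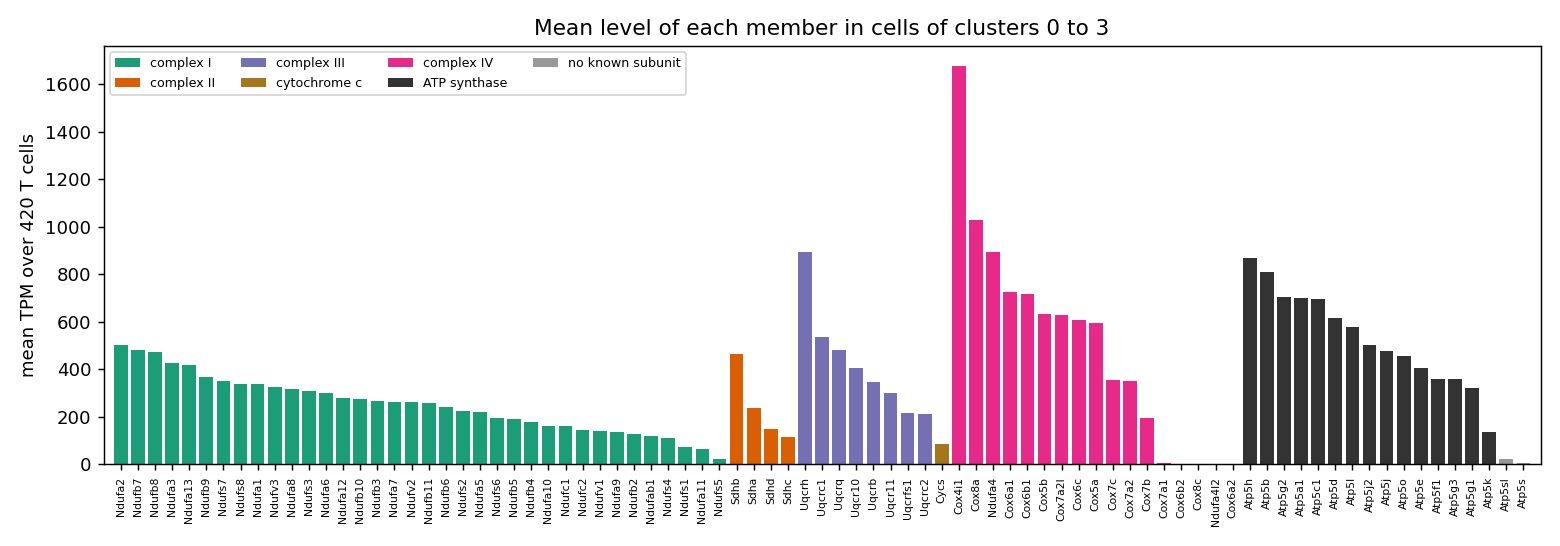
Mean level of each member (vertical axis, TPM) in the 420 cells of clusters 0 to 3, ordered within its complex (horizontal axis, coloured by complex). Cox4i1 stands highest at 1677 TPM, the complex I members lie at or below 502.7 TPM, and the tissue-restricted complex IV paralogues lie at or near 0.

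Of the 83 members, 77 were detected in at least 10% of all cells. The other 6 were Cox6a2, Cox6b2, Cox7a1, Cox8c and Ndufa4l2 of complex IV and the unplaced Atp5s. Cox6a2 and Cox7a1 are heart and muscle isoforms, and Cox6b2 and Cox8c are known from testis. In clusters 0 to 3, Cox6a2 was seen in 0 of 420 cells (exact 95% upper limit 0.874%; 3 cells of 420 would be 0.714%), while its ubiquitous partner Cox6a1 was at 724.6 TPM. Ndufa4l2 was also detected in 0 of 420, Cox8c in 1, Cox7a1 in 5, Atp5s in 6 and Cox6b2 in 7. Atp5sl was detected in 53 of 420 cells (12.6%, exact 95% interval 9.60 to 16.2%). Limits and intervals cover counting error only. Cox4i2, Cox8b and Cox4nb are not in the table used here.

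The summed level of all 83 members averaged close to 3% of transcripts in every class but the dividing one, with wide spread between cells. The mean sum was 30266 ± 8491 TPM in HIP Tfh cells, 28329 ± 8246 TPM in Ins Tfh cells and 27906 ± 6371 TPM in Ins Tregs. Cluster 2 gave 30754 ± 6819 TPM in the HIP sort and 27867 ± 5919 TPM in the Ins sort. The 3 HIP Tregs summed to 23109, 28135 and 31117 TPM. These non-dividing groups overlapped throughout, from 862.1 TPM in the lowest to 61159 TPM in the highest cell.

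Dividing cells lay above them, at 38248 ± 3938 TPM in the HIP sort (9 cells, from 31722 to 43987) and 36557 ± 4239 TPM in the Ins sort (35 cells, from 29051 to 45238, median 37619). They overlapped the upper part of the other classes. Cluster 4 had a mean of 31092 ± 7833 TPM. As a yardstick, the mean of a class differed between blocks of the same sort with a pooled standard deviation of 0.134 log2 units over 11 degrees of freedom. That value leans on cluster 4, which had the widest gap. Its mean was 27854 TPM in block 4 (14 cells) and 39902 TPM in block 5 (5 cells).

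**Figure D2:**
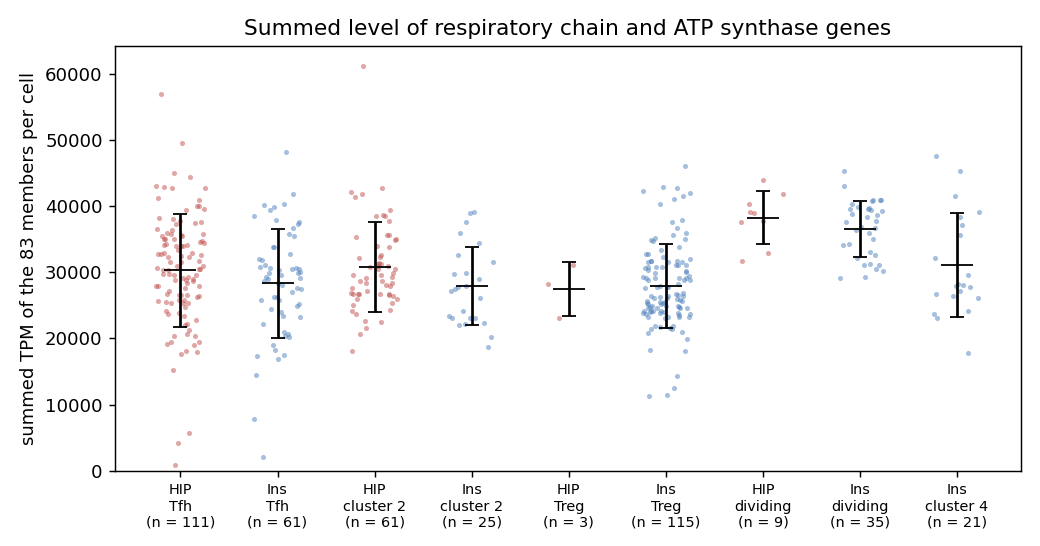
Summed TPM of the 83 members in each cell (vertical axis) by sort and class (horizontal axis). Points are cells, long bars are means and whiskers are 1 SD over cells. The dividing cells of both sorts have means of 38248 and 36557 TPM, above the means of the other 7 groups.

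The number of members detected in a cell moved with the number of all genes detected. Spearman's rho between these counts ran from 0.78 to 0.89 within the 7 groups of 21 or more cells, over 21 to 115 cells each, as a description without a test. The summed level was less tied to it, with rho from 0.07 to 0.36. Members numbered 28 at the median in HIP Tfh cells, 29 in Ins Tfh cells, 31 in Ins Tregs, 69 in HIP and 64 in Ins dividing cells, and 53 in cluster 4. Genes of all kinds numbered 1951, 1963, 2017, 3992, 3610 and 2477 in the same groups. Members therefore made up 1.56%, 1.52%, 1.53%, 1.75%, 1.73% and 2.06% of the genes detected. Cluster 4 had the highest of these shares. The part that depth plays in the number detected was not tested.

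**Figure D3:**
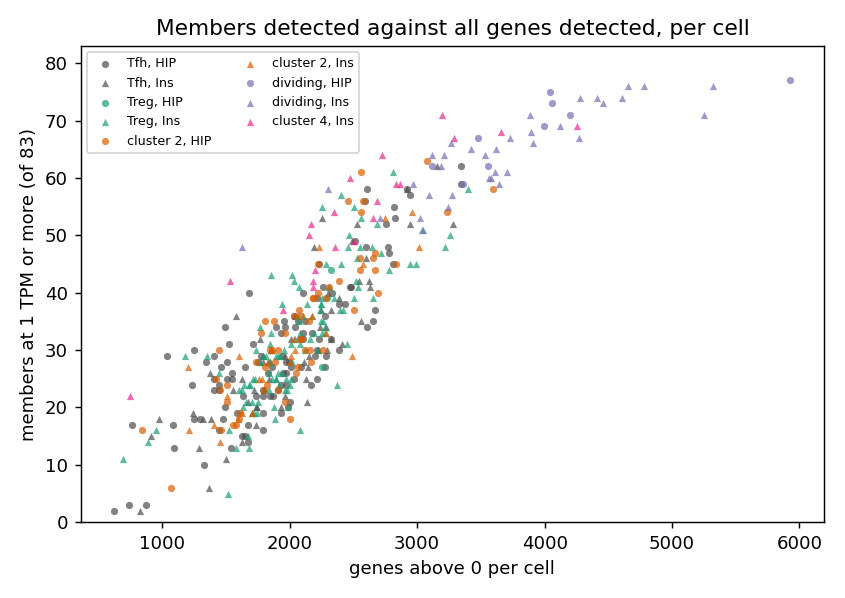
Number of the 83 members at 1 TPM or more (vertical axis) against all genes above 0 (horizontal axis) in each of 441 cells, coloured by class and shaped by sort. Dividing cells sit at the upper right, with medians of 69 and 64 members, and cluster 4 cells lie above T cells of like gene number.

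Dividing cells held transcripts of more members at once than the other classes, with medians of 69 (59 to 77) and 64 (48 to 76) of 83 in the HIP and Ins sorts. Uqcrb, a small complex III subunit, was detected in all 9 HIP dividing cells, from 279.1 TPM to 1377 TPM with a median of 1005, but in 37 of 111 HIP Tfh cells (33.3%, 24.7 to 42.9%), where the median was 0 and the highest cell had 3875 TPM. The groups overlapped, since Tfh cells with the transcript often exceeded the dividing cells. Its mean was 885.1 TPM against 317.5 TPM, and the difference of mean log2(TPM + 1) was 6.54. On this scale genes absent from many cells give large differences that mostly follow the share of cells detected. The other leading members were Ndufb6 (6.41), the NADH-binding subunit Ndufv1 (6.28), Ndufc2 (5.78) and Uqcr10 (5.78).

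A difference of 1 log2 unit or more was used as the call. In HIP dividing against HIP Tfh cells, 76 of 77 members were higher, where 55.3% of the 5935 genes detected in at least 10% of cells were, and 0 were lower, where 2.21% of all genes were. In Ins dividing cells against Ins Tregs, 75 of 77 were higher, against 49.5% of all genes, and 0 lower, against 1.23%. The median difference of members was 4.17 and 3.36 log2 units, against 1.23 and 0.99 over all genes. The exceptions were Ndufs5, of complex I, at 0.68 and 0.54, and in the Ins sort also Atp5sl, at 0.76; both were named after their values were seen.

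By the ratio of mean TPM, which also averages over cells at 0 but on a linear scale, few members were called. Past 2-fold, 3 members were higher in HIP dividing than in Tfh cells (10.4% of all genes) and 1 was lower (31.3% of all genes). The 3 were Cycs (154.7 against 56.8 TPM), Uqcrb and Ndufv1, and the lower member was Ndufa7 (106.2 against 349.7 TPM). In Ins dividing cells against Tregs, 7 were higher (9.3% of all genes) and 0 lower (18.7% of all genes). The 7 included Uqcrfs1, the Rieske iron-sulfur protein of complex III, Atp5o (813.2 against 325.7 TPM) and Atp5b (1372 against 625.1 TPM). The median log2 ratio of means was 0.35 and 0.37 for members while it was -0.41 and -0.24 over all genes, so the median member was higher and the median gene lower on this scale. Ndufb6 and Uqcr10 were among the genes highest on the log scale that did not pass 2-fold on the means.

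By complex, ATP synthase had the highest ratio of Ins dividing cells to Tregs, but not of Ins dividing cells to Tfh cells. Its summed level was 10581 ± 1460 TPM in dividing cells and 6927 ± 2722 TPM in Tregs, a ratio of 1.53 with a range of 1.43 to 1.63 over the 3 Ins blocks. Complex I had a ratio of 1.20 (1.15 to 1.28), complex III 1.33 (1.23 to 1.37) and complex IV 1.23 (1.15 to 1.28). The block range of ATP synthase lay above those of complexes I, III and IV. It overlapped that of complex II, at 1.25 (1.09 to 1.49), and of cytochrome c, at 1.49 (1.11 to 1.91). Against Ins Tfh cells, a reference added after the data were seen, ATP synthase was at 1.24 (1.20 to 1.27), complex I at 1.22 (1.14 to 1.26), complex III at 1.34 (1.12 to 1.69), complex IV at 1.39 (1.20 to 1.57) and complex II at 1.51 (1.29 to 2.16). In the HIP sort, dividing over Tfh, ATP synthase was at 1.38 (1.34 to 1.50), complex III at 1.48 (1.12 to 1.77) and complex I at 1.11 (1.09 to 1.16). Over all members the ratio was 1.26 in the HIP and 1.31 in the Ins sort. The Ins Tregs and HIP Tfh cells used here also serve in other comparisons, which are therefore not independent. Transcripts of the Treg marker Foxp3 were present in 27 of 35 Ins dividing cells, 94 of 115 Ins Tregs and 8 of 61 Ins Tfh cells. By this marker the Ins dividing cells were closer to Tregs than to Tfh cells. Its bearing on the ratios was not tested.

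**Figure D4:**
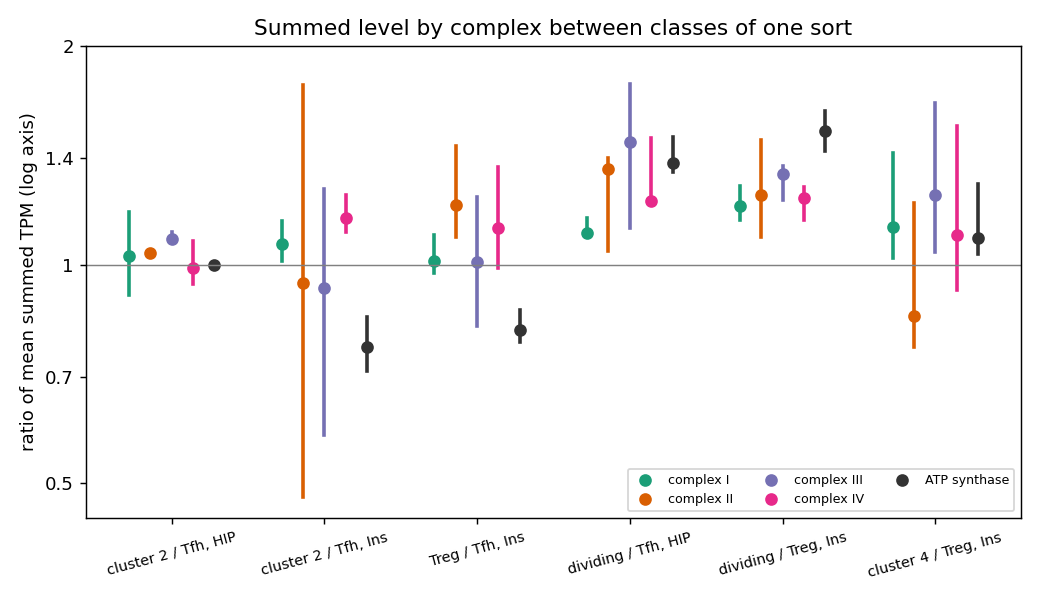
Ratio of mean summed TPM between classes of one sort (vertical log axis) for 6 comparisons (horizontal axis) and 5 complexes (colours). Points are ratios over all cells and lines span the lowest to the highest ratio within a block. ATP synthase lies at 0.77 and 0.81 for Ins cluster 2 and Ins Tregs against Tfh cells, at 1.00 for HIP cluster 2 against Tfh cells, and at 1.53 for Ins dividing cells against Tregs.

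Among non-dividing Ins cells, the summed level of ATP synthase transcripts was lower in Tregs and in cluster 2 than in Tfh cells. The summed level was 8520 ± 3561 TPM in 61 Tfh cells (from 1395 to 18774, median 8192), 6927 ± 2722 TPM in 115 Tregs (from 748.8 to 14047, median 7099) and 6559 ± 2836 TPM in 25 cluster 2 cells (from 0 to 11684, median 6310). The cells of the 3 classes overlapped widely. The ratio to Tfh cells was 0.81 in Tregs, with 0.78 to 0.87 over blocks, and 0.77 in cluster 2, with 0.71 to 0.85 over blocks. These comparisons share the Ins Tfh cells. In the HIP sort the same ratio of cluster 2 to Tfh cells was 1.00 (0.99 to 1.00 over 2 blocks). The difference between the sorts was not tested. The sum of all members in Ins Tregs and cluster 2 was 0.99 and 0.98 of that in Tfh cells, and complex IV was at 1.12 (0.99 to 1.36) and 1.16 (1.11 to 1.25). Some other sets were also below 1. In Tregs the complex I core genes were at 0.82 (0.68 to 0.93) and cytochrome c at 0.78 (0.49 to 1.23). In cluster 2, complex II was at 0.94 (0.48 to 1.77) and complex III at 0.93 (0.58 to 1.27).

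The c ring held the lowest ratios. The sum of its 3 genes was 1689 TPM in Ins Tfh cells, 1121 TPM in Tregs and 1198 TPM in cluster 2, which gave 0.66 (0.54 to 0.79) and 0.71 (0.68 to 0.74). The F1 head, the sum of 5 genes, was at 0.81 and 0.76, and the stalk and membrane genes at 0.90 and 0.81. In the HIP sort the c ring of cluster 2 was also below that of Tfh cells, at 0.87 (0.79 to 0.95 over 2 blocks). There the F1 head was at 1.02 (0.99 to 1.05) and the stalk and membrane genes at 1.03 (0.98 to 1.10). Atp5g1 was detected in 27 of 61 Tfh cells and 40 of 115 Tregs, with a highest cell of 2795 and 2284 TPM and a median of 0 in both. Its mean was 433.0 and 197.0 TPM, and the log difference was -1.19 (-1.72 to -0.79 over blocks).

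Atp5g2 was detected in 43 of 61 Ins Tfh cells (70.5%, 57.4 to 81.5%), 69 of 115 Tregs (60.0%, 50.5 to 69.0%) and 11 of 25 cluster 2 cells (44.0%, 24.4 to 65.1%). Its median was 718.8, 333.1 and 0 TPM, and its highest cell was at 4464, 4117 and 3837 TPM. The log difference to Tfh cells was -1.32 in Tregs and -2.55 in cluster 2. Atp5g3 went the other way. It was detected in 52.5%, 66.1% and 72.0% of the same cells, with mean levels of 341.7, 359.3 and 366.2 TPM and a log difference of 1.02 in Tregs and 1.35 in cluster 2. As counted, Atp5g1 and Atp5g2 had lower means than in Tfh cells and Atp5g3 did not, but how reads were split among these paralogues was not tested.

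In the F1 head, the catalytic gene Atp5b was at 1066 ± 1146 TPM in Ins Tfh cells (median 627.8, highest 4643) and at 625.1 ± 626.2 TPM in Tregs (median 614.1, highest 2084). It was also low in cluster 2, at 647.6 TPM, while 73.8%, 63.5% and 72.0% of the cells had it. The medians lay close together, and the high Tfh cells set the means apart. Atp5o was detected in 27 of 61 Tfh cells and 5 of 25 cluster 2 cells (20.0%, 6.83 to 40.7%), at a mean of 438.4 and 181.4 TPM, a log difference of -2.38. Within blocks that difference ran from -4.47 to 0.05. Atp5f1, the stalk subunit b, was at 448.2 TPM in Tfh cells and 224.8 TPM in cluster 2, a difference of -1.92 (-2.76 to -1.05).

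**Figure D5:**
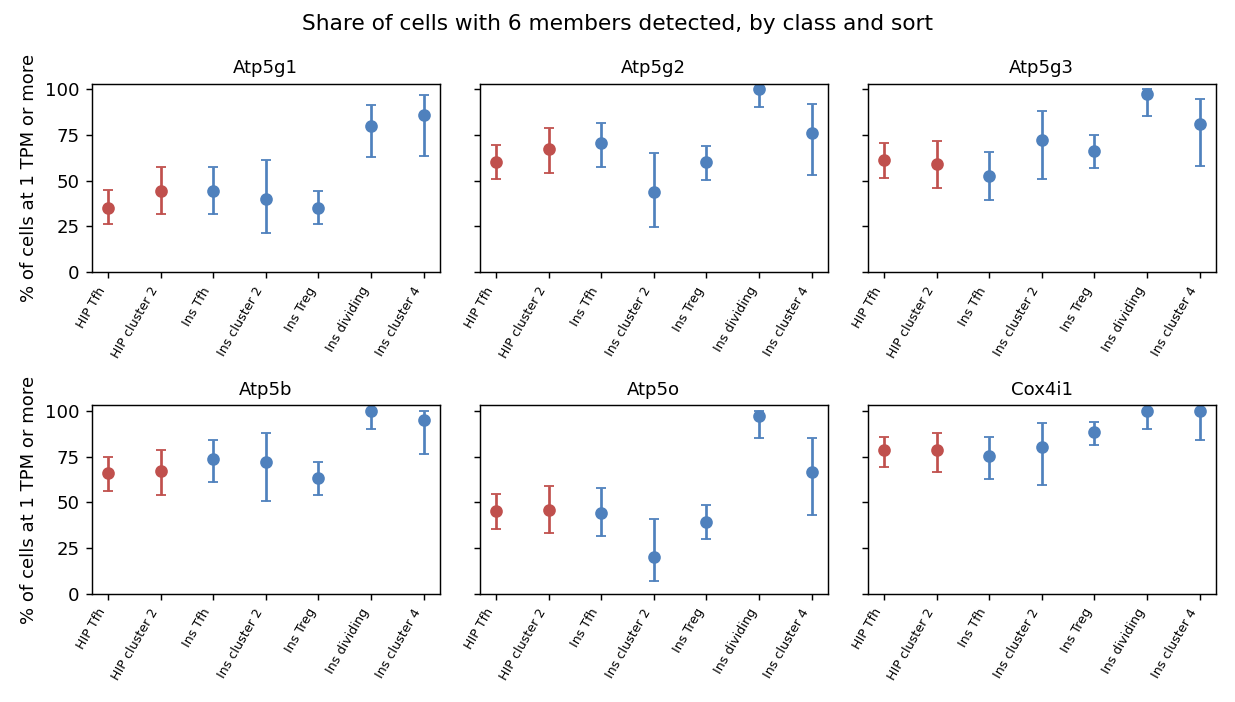
Share of cells with 6 members at 1 TPM or more (vertical axis, percent) in 7 groups of sort and class (horizontal axis; the groups of 3 and 9 HIP cells are not drawn). Points are shares, and whiskers are exact 95% intervals that cover counting error only. Atp5g2 goes from 70.5% in Ins Tfh cells to 44.0% in Ins cluster 2, while Atp5g3 goes from 52.5% to 72.0%, with overlapping intervals.

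Over single genes, Ins Tregs against Ins Tfh cells had 17 of 77 members higher by 1 log2 unit or more and 6 lower, where 9.01% and 4.31% of all genes were. The balance turned by mean TPM past 2-fold, with 2 higher (14% of all genes) and 3 lower (12.4% of all genes), and the median log2 ratio of members was -0.08. The 2 higher were Ndufa10 and Ndufb6 and the 3 lower Ndufs3, Atp5g1 and Uqcrfs1, named after their values were seen. Complex IV held 5 of the higher and 1 of the lower members, and ATP synthase 2 of the higher and 3 of the lower. The median ATP synthase member differed by 0.005 log2 units, against 0.02 over all genes, so its lower sum was not seen on this scale. Ndufb7, an accessory subunit of complex I, was detected in 72 of 115 Tregs (62.6%, 53.1 to 71.5%) and in 23 of 61 Tfh cells (37.7%, 25.6 to 51.0%). Its median was 426.6 TPM against 0, the highest cells had 3419 and 2894 TPM, and the difference was 2.31 (1.34 to 3.17 over blocks). Cox4i1 was detected in 88.7% of Tregs and 75.4% of Tfh cells, at a mean of 1746 and 1365 TPM, and differed by 1.74 (0.66 to 2.94).

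The lower members included the complex I core gene Ndufs3 (-1.52), Uqcrfs1 (-1.52) and Cox5b (-1.33). Uqcrfs1 was at 124.1 TPM in Tregs and 257.7 TPM in Tfh cells and kept its direction in each block (-2.25 to -0.61), while Ndufs3 did not (-2.75 to 1.03). Ndufa13, Uqcrc1 and Cox7a2l were higher in Tregs by 1.61, 1.53 and 1.45 over all cells, but each was lower in at least 1 block. For Cox7a2l, a factor that joins complexes III and IV, the difference was -0.08 in cells with 2000 to 4000 genes. By the ratio of mean TPM, none of the higher genes named here passed 2-fold.

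In the Ins sort, cluster 2 against Tfh cells had 12 of 77 members higher and 11 lower, where 9.22% and 8.17% of all genes were. By mean TPM past 2-fold, 5 were higher (15.2% of all genes) and 6 lower (22.1% of all genes). The 5 higher, named after their values were seen, were Ndufs8, Ndufv1, Ndufa12, Sdhd and Atp5sl. ATP synthase held 5 of the 11 lower members and 3 of the 12 higher ones. Cox6a1, a complex IV subunit, was detected in 17 of 25 cluster 2 cells (68.0%, 46.5 to 85.1%) and 28 of 61 Tfh cells (45.9%, 33.1 to 59.2%). Its median was 768.4 TPM against 0, and its highest cell 3614 against 2410 TPM. The difference of 2.38 ran from -0.27 to 3.71 over blocks. Ndufv2, a core subunit of complex I, was lower (-2.19, -3.39 to -0.66), with 5 of 25 against 29 of 61 cells detected, and Sdhb was lower too (-1.54, -2.77 to -0.29). Cluster 2 held 25 Ins cells, so each share has a wide interval.

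In the HIP sort, cluster 2 against Tfh cells had 17 members higher, where 8.29% of all genes were, and 0 lower, where 2.66% were. By mean TPM past 2-fold, 1 was higher (10.6% of all genes) and 1 lower (15% of all genes): Uqcr11 of complex III (410.8 against 198.6 TPM) and Ndufs1 of complex I (39.0 against 113.6 TPM), named after their values were seen. Complex IV and complex I held 6 each of the higher members. Ndufb8, an accessory subunit of complex I, was detected in 29 of 61 cluster 2 cells (47.5%, 34.6 to 60.7%) and 28 of 111 Tfh cells (25.2%, 17.5 to 34.4%). The median was 0 in both, the highest cell had 6064 and 3305 TPM, and the difference was 2.12 (1.52 to 2.42 over the 2 blocks). Cox6b1 (1.96), Ndufa13 (1.96), Atp5l (1.68) and Uqcrq (1.66) followed. The ratio of summed levels between the 2 classes was 1.02 (1.00 to 1.05). Cells had a median of 2075 genes in cluster 2 and 1951 in Tfh cells. Without block 3 the count was 26 members, of which 7 were lower.

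Between the tetramer sorts, the share of members called in Tfh cells was above that of all genes on the log scale and below it by mean TPM. In HIP against Ins Tfh cells, 5 of 77 members were higher and 7 lower, where 1.99% and 3.66% of all genes were. By mean TPM past 2-fold, 1 was higher (12.3% of all genes) and 0 lower (9.96% of all genes). It was Ndufa12 (316.8 against 157.5 TPM), named after its value was seen. The summed level was at a ratio of 1.07. Ndufa8, of complex I, was found in 34.2% of HIP Tfh cells (38 of 111, 25.5 to 43.8%) and in 10 of 61 from the Ins sort (16.4%, 8.15 to 28.1%). Its mean was 416.8 and 272.7 TPM, the median was 0 in both and the difference was 1.72. Atp5h had medians of 821.8 TPM (HIP) and 207.7 TPM (Ins) and a mean of 1175 and 651.4 TPM, a difference of 1.36.

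In the other direction, Ndufb8 (-1.94), the F1 gene Atp5d (-1.39), Atp5f1 (-1.32), Cycs (-1.18) and Cox5a (-1.12) were lower in HIP Tfh cells. Cycs, which carries electrons between complexes III and IV and also takes part in apoptosis, was found in 39.6% of HIP Tfh cells (44 of 111, 30.5 to 49.4%) and in 33 of 61 from the Ins sort (54.1%, 40.9 to 66.9%). Its mean was 56.8 and 111.2 TPM and its highest cells had 1106 and 1397 TPM. Leaving out block 4, of the Ins sort, moved the count from 12 to 19 members. Endocrine markers were present in 18 of the 111 HIP Tfh cells and in 5 of the 61 Ins Tfh cells, where they summed to 0 to 11883 and 0 to 2695 TPM, with Chga at 0 in both groups and Gcg and Iapp at 0 in the Ins group. Their part in these differences was not tested, beyond the count without such cells, which stayed within 1.5 times.

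In cluster 2, 26 of 77 members were higher and 7 lower in HIP than in Ins cells, where 8.41% and 6.17% of all genes were. The split was nearly even by mean TPM past 2-fold, with 6 higher (20.1% of all genes) and 5 lower (14.9% of all genes). The 5 lower, named after their values were seen, were Ndufc2, Ndufb5, Ndufs8, Cycs and Atp5sl. ATP synthase held 7 of the higher members and had a summed ratio of 1.23, while complex IV was at 1.00. Atp5o was found in 45.9% of HIP cluster 2 cells (28 of 61, 33.1 to 59.2%) and in 5 of 25 from the Ins sort, at a mean of 511.9 and 181.4 TPM and a highest cell of 5757 and 1444 TPM, a difference of 2.41. Cox8a, a small complex IV subunit, had medians of 987.2 TPM (HIP) and 623.0 TPM (Ins) and differed by 1.82. Ndufa10 (1.91), Atp5f1 (1.89) and Atp5h (1.84) were also higher.

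Among the lower members were Ndufb5 (-1.60), Ndufa3 (-1.31), Ndufc2 (-1.26), Atp5e (-1.20) and Cox7b (-1.14), of which Ndufb5 turned to 0.129 in cells with 2000 to 4000 genes. The 4 genes of complex II were not alike. Sdhb (1.70) and Sdhc (1.11) were higher in HIP cluster 2, and Sdha (-0.43) and Sdhd (0.22) lay within 1 log2 unit. Median gene numbers were 2075 in HIP and 1862 in Ins cells of this class, and their part was not tested.

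The dividing class held 9 HIP cells, 7 of them in block 3. There 18 members were higher and 4 lower in HIP cells, where 19.4% and 13.4% of all genes were, so the members stood near the background in the higher direction and below it in the lower. By mean TPM past 2-fold, 0 of 77 were higher (8.56% of all genes) and 0 lower (18.9% of all genes). The members that differed most were Ndufb10 (2.83), Ndufb6 (2.37) and Ndufa5 (2.29) of complex I, Uqcrb of complex III (2.04) and Ndufs7 of complex I (2.02). The 4 lower members were all in complex I: Ndufs4 (-1.78), Ndufa7 (-1.25), Ndufb7 (-1.09) and Ndufa6 (-1.06). Ndufb10 was found in 8 of the 9 HIP cells and in 22 of the 35 from the Ins sort, at a mean of 468.1 ± 282.1 and 242.7 ± 340.8 TPM. For Ndufb6 the means ran against the log difference, at 344.4 and 348.6 TPM, and Ndufb7 turned to 1.93 without block 3. Without that block the count was 48 members on 2 HIP cells. Some class markers also set the dividing cells of the sorts apart. The Treg marker Foxp3 had transcripts in 27 of 35 Ins cells (77.1%) and 0 of 9 HIP cells. For the Tfh marker Il21 the numbers were 5 of 35 Ins and 6 of 9 HIP cells. The part of this make-up in the member differences was not tested.

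Cluster 4 cells carried more members than Tregs at lower levels each, with a median of 554 TPM per detected member against 876 TPM. Against Ins Tregs, 60 of 77 members were higher, where 25.1% of all genes were, and 0 lower, where 12.6% were. By mean TPM past 2-fold, 6 were higher (9.69% of all genes) and 3 lower (39.1% of all genes). The summed level was at a ratio of 1.11 (1.05 to 1.44). The 6 antibody-secreting cell markers took a large share of these cells' TPM, from 31580 to 328748 TPM. The total is the same in every cell. Most of that share was Igj, with a mean of 126553 TPM of the 131704 TPM in all 6. Antibody heavy and light chain genes are not among these markers. With the TPM rescaled without those markers the log2 ratio was 0.35, from 0.16 before. T cell markers summed to a median of 0 TPM here, with Cd4 at 0 in every cell.

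Atp5g1 was the member that differed most. It was detected in 18 of 21 cluster 4 cells (85.7%, 63.7 to 97.0%) with a median of 988.5 and a highest cell of 2794 TPM, and in 40 of 115 Tregs (34.8%, 26.1 to 44.2%) with a median of 0. The mean was 1021 ± 852.5 TPM against 197.0 ± 352.5 TPM, a ratio of 5.18 and a log difference of 5.31 (5.12 to 7.18 over blocks). Atp5g2 and Atp5g3 had ratios of 1.02 and 0.92, so of the 3 ring genes Atp5g1 alone passed 2-fold. Ndufa1 (4.87), Cox7a2 (4.52), Ndufs3 (4.40) and Cox6a1 (4.38) followed. Sdhc (40.8 against 124.0 TPM), Ndufa10 and Ndufa5 were lower past 2-fold by mean TPM.

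Cox6a2 was detected in 4 of 21 cluster 4 cells (19.0%, 5.45 to 41.9%), with a highest cell of 488.9 TPM, and in 0 of the 420 other cells. Ndufa4l2 was detected in 2 of 21 (9.52%, 1.17 to 30.4%), with a highest cell of 84.0 TPM. Both are paralogues of genes that all classes carried, Cox6a1 and Ndufa4. The genes detected per cell numbered 2477 at the median in cluster 4 and 2017 in Tregs.

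Genes that assemble, regulate or serve the chain were set beside the members as 3 lists. Of 51 assembly factors, 27 passed the detection filter. In dividing cells 19 of those 27 were higher than in HIP Tfh cells and 17 higher than in Ins Tregs, with 0 lower in both, where 55.3% and 49.5% of all genes were higher. They were led by the copper chaperone Cox17 (4.30 and 4.00), Cox20 (4.43) in the HIP sort and Coa5 (4.14) in the Ins sort. Of 13 carriers and inhibitors that passed, 13 and 12 were higher, among them Atpif1, the ATP synthase inhibitor (5.87 in the HIP sort), Immt of the inner membrane folds (5.39), and in the Ins sort Slc25a4, an ADP/ATP carrier (4.69), and Usmg5, a small ATP synthase protein (4.43). Of 10 regulators, 9 and 8 were higher, led in both by Ssbp1, which binds mitochondrial DNA (4.29 and 2.33), with Slirp (3.79) and Gabpb1 (1.98). Against HIP Tfh cells, by mean TPM past 2-fold, 1 assembly factor was higher and 3 lower, 3 carriers were higher and 0 lower, and 3 regulators were higher and 2 lower. Of all genes, 10.4% were higher and 31.3% lower. Against Ins Tregs, 4 assembly factors were higher and 3 lower, 1 carrier was higher and 0 lower, and 2 regulators were higher and 0 lower. There 9.3% of all genes were higher and 18.7% lower.

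The other comparisons are read against the same shares of all genes as the members. In Ins Tregs against Tfh cells, 2 of 27 assembly factors were higher, Sdhaf1 (1.57) and Cox20 (1.16). So were 4 of 13 carriers, among them Chchd10 (1.41) and the ADP/ATP carrier Slc25a5 (1.38). No listed gene was lower on the log scale. By mean TPM past 2-fold, 5 assembly factors were higher and 3 lower. On that scale 0 regulators were higher and 3 lower, and 1 carrier was higher and 0 lower. In Ins cluster 2 against Tfh cells, the supercomplex factor Higd2a (2.09), Oxa1l (1.34), Vdac3 (2.24) and Slc25a4 (1.36) were higher, and Chchd3 (-1.67), Vdac1 (-1.30), Sdhaf1 (-1.11) and the regulator Nrf1 (-1.37) lower. Nrf1 was detected in 0 of 25 Ins cluster 2 cells and 19.7% of Ins Tfh cells. With 25 cells a share of 0 has a wide interval. Any link of Nrf1 to the motif matches shown above was not tested. In HIP cluster 2 against Tfh cells, Cox16 (1.47), the proton carrier Ucp2 (1.68) and Vdac3 (1.34) were higher.

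Between the sorts, Atpif1 (1.71) and Usmg5 (1.64) were higher and Chchd2 (-1.21) lower in HIP than in Ins Tfh cells. In HIP against Ins cluster 2, Ucp2 (2.01), Coa3 (1.35), Cox16 (1.29), Usmg5 (1.29) and Nrf1 (1.22) were higher, and Higd2a (-2.11), Slirp (-1.55), Oxa1l (-1.12) and Vdac3 (-1.03) lower. In the dividing class 5 of 27 assembly factors were higher and 6 lower, 4 of 10 regulators were higher and 0 lower, and 3 of 13 carriers were higher and 1 lower. There Immt (3.18), Slirp (2.37), Tfam (2.33), Cmc1 (2.23), Atpif1 (2.10) and Sdhaf2 (2.08) were higher. Chchd10 (-2.72), Sdhaf1 (-2.34) and Coa5 (-1.87) were lower. By mean TPM past 2-fold, 0 assembly factors were higher and 7 lower in this class. On that scale 1 regulator was higher and 1 lower, and 1 carrier was higher and 0 lower. In cluster 4 against Tregs, 8 of 27 assembly factors were higher and 2 lower, 8 of 13 carriers were higher and 0 lower, and 2 of 10 regulators were higher and 0 lower. There Cox17 (4.97), Usmg5 (2.83), Coa5 (2.33), Chchd2 (2.14), Ssbp1 (1.72) and Tfb2m (1.24) were higher. Cox20 (-1.42) and Sdhaf2 (-2.12) were lower, Sdhaf2 being listed at 0 in all 21 cells. Of all genes, 25.1% were higher and 12.6% lower, so assembly factors stood near the background. By mean TPM past 2-fold, 3 assembly factors were higher and 10 lower. On that scale 0 carriers were higher and 1 lower, and 2 regulators were higher and 4 lower. There 9.69% of all genes were higher and 39.1% lower.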

How the data were processed

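Single-cell RNA was measured by SMART-Seq2 in 441 sorted cells. The deposited table holds natural log values, ln(TPM/10 + 1), which was checked: every cell sums to 1000000 TPM once undone. The class, sort and gene number per cell are deposited beside it. RSEM 1.2.8, TopHat, Bowtie and build mm10 are named per the submitters' processing notes, without their order. Cell filters and doublet removal are not stated in the labels, and no cell was removed. TPM was recomputed as 10 × (exp(value) - 1). Genes detected (1 TPM or more) in at least 10% of cells were compared by the difference of mean log2(TPM + 1), pseudocount 1, and by the ratio of mean TPM. With 1 sample per sort and no animal named, no test was made. Intervals are exact Clopper-Pearson, at 95%. The members were set by symbol, but they and the lists were chosen with earlier results of these data known. Named genes are up to 5 per comparison and direction past 1 log2 unit by size, up to 4 of highest mean per complex, and up to 2 per list and direction. Alternatives left out blocks or cells, or changed the pseudocount, fold, scaling or weighting. The code was tested on simulated data. Python 3.11.15, numpy 2.4.6, pandas 2.3.3, scipy 1.17.1 and matplotlib 3.10.9 were used.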

Additional observations from a re-analysis of the deposited data

Results flagged for a closer look

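For 2 members the difference between cluster 2 and Tfh cells passed 1 log2 unit in opposite directions in the sorts. Atp5f1, the stalk subunit b of ATP synthase, differed by 1.30 in the HIP sort and by -1.92 in the Ins sort. Ndufb8, of complex I, differed by 2.12 in the HIP sort and by -1.08 in the Ins sort, where it ran from -1.69 to 0.47 over blocks. The difference between the sorts was not tested, and sort and block cannot be told apart.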

How the results depend on the processing

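No paired analysis was possible because each sort is 1 sample and no label ties cells across sorts. Counts of members past the fold moved most. Of the changed settings, the share over all genes was computed for mean TPM only. The other changed counts, here and above, therefore have no background beside them. In the order HIP against Ins for Tfh cells, cluster 2 and dividing cells, then cluster 2 against Tfh in the HIP and in the Ins sort, then Tregs against Tfh cells, the counts were 12, 33, 22, 17, 23 and 23. With a pseudocount of 10 they were 3, 13, 7, 5, 6 and 6, and at 0.5 log2 units 37, 52, 43, 37, 51 and 43. By mean TPM they were 1, 11, 0, 2, 11 and 5. Leaving out a block in turn gave 13 to 19, 28 to 39, 21 to 48, 25 to 26, 28 to 31 and 23 to 31. In cells with 2000 to 4000 genes the counts for Tfh cells between sorts and for cluster 2 against Tfh cells were 28, 26 (HIP) and 45 (Ins). For dividing against Tfh cells, dividing cells against Tregs and cluster 4 against Tregs, counts of 76, 75 and 60 became 4, 7 and 9 by mean TPM, and 74 to 75, 75 to 75 and 55 to 63 without a block; the cause was not tested. The summed level of all members kept within the block spread in 91 of 95 alternatives. That spread of 0.134 log2 units leans on cluster 4 and exceeds several of the ratios, so it is a loose limit. Without a block its log2 ratio between sorts was 0.029 to 0.1515 for Tfh cells, 0.0548 to 0.2452 for cluster 2 and 0.0223 to 0.2062 for dividing cells. It was 0.0021 to 0.0699 (HIP) and -0.0323 to -0.0111 (Ins) for cluster 2 against Tfh cells. For Tregs against Tfh cells it was -0.075 to 0.0322. For cluster 4 against Tregs it was 0.0182 to 0.3811, and 0.3509 over all blocks without the antibody-secreting cell markers. ATP synthase in dividing cells against Tregs was 0.458 in cells with 2000 to 4000 genes and 0.567 to 0.6415 without a block. Reversals were Ndufb5 (0.129) and Cox7a2l (-0.0802) in those cells, Ndufb6 by mean TPM (-0.0175), and Ndufb7 with equal block weight (0.0427) and without a block (-1.9538 to 1.928, the latter without block 3); the cause was not tested. TPM keeps no depth, so depth could not be matched between cells.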
